A study of Mus musculus with 6 samples.

Results

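The genes described here are the integrin subunits and laminin chains of mouse pulmonary artery smooth muscle cells (mPASMCs). They were chosen by name alone, as protein-coding genes whose symbol is *Itga* with its number or letter, *Itgb1* to *Itgb8*, or *Lama*, *Lamb* or *Lamc* with a chain number. Of the 55487 genes in the count table, 21936 of them protein coding, 37 met this rule, and 36 of them are described here. Of these 36 members, 29 had enough reads to be tested.

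The study compared mPASMCs transfected with a control siRNA (si-NC, 3 libraries) with mPASMCs transfected with an siRNA against *Snhg18*, a long noncoding RNA that hosts a small nucleolar RNA (si-*Snhg18*, 3 libraries), to find genes downstream of *Snhg18*. The mPASMCs were obtained from Procell, were used at early passages and received the siRNA by lipid transfection with Lipofectamine. Both groups went through transfection. The time after transfection and the oxygen level of the sequenced cells are not given in the sources used here, and neither is whether the 3 libraries of a group came from separate cultures, so the p-values measure the spread between these libraries, which may be technical.

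Integrins are receptors made of 1 alpha and 1 beta subunit that tie the actin cytoskeleton to the extracellular matrix and pass signals in both directions through talin, kindlin and focal adhesion kinase. Laminins are cross-shaped trimers of 1 alpha, 1 beta and 1 gamma chain that form the sheet of basement membranes, including the one that surrounds each smooth muscle cell of the artery wall. Integrins with the alpha3, alpha6 or alpha7 subunit bind laminin, those with alpha5, alphav or alpha8 bind the RGD motif of fibronectin, vitronectin and related proteins, and those with alpha1, alpha2, alpha10 or alpha11 bind collagen. In vascular smooth muscle these receptors are known for their part in contraction, migration and the switch between contractile and growing states.

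Promoter sequences are shown for 4 of the members called, *Lamb1* and *Lamb2*, laminin beta chains that moved in opposite directions, and *Itga3* and *Itgb7*, which had the largest falls. Each runs 5′ to 3′ on the strand of the gene from 250 bases before to 50 bases after a RefSeq start on GRCm38.p6, and capitals mark the GC box GGGCGG or its reverse complement CCGCCC. *Itga3* has 2 starts in RefSeq and the upstream one is shown.
Lamb1, chr12:31265043-31265342, plus strand: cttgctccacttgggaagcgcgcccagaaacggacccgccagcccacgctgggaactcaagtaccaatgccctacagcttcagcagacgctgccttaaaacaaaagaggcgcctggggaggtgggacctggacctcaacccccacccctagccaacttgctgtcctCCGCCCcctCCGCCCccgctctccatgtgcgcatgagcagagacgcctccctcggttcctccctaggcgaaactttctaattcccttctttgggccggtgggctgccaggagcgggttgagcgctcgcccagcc
Lamb2, chr9:108479612-108479911, plus strand: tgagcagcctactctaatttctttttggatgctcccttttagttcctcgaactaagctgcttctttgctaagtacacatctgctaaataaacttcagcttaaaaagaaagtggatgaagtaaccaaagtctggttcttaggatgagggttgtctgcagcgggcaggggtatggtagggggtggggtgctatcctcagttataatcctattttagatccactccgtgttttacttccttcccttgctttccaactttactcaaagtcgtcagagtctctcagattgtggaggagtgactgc
Itga3, chr11:95076665-95076964, minus strand: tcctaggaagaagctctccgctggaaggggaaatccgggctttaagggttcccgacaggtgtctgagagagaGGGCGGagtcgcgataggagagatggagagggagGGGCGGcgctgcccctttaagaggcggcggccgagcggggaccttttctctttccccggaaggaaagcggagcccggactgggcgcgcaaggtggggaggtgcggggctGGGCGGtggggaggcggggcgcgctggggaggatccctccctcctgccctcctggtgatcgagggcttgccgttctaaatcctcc
Itgb7, chr15:102231886-102232185, minus strand: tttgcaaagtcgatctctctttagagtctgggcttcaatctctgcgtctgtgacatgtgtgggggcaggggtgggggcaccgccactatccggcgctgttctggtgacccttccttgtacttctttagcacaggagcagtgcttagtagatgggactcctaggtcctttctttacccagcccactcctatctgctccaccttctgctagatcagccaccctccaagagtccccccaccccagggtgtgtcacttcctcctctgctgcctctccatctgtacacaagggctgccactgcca
The *Lamb1* window held the GC box 2 times and the *Itga3* window 3 times, while these letters were in neither the *Lamb2* nor the *Itgb7* window. RefSeq promoters were matched by symbol for 23 of the 36 members, 26 promoters in all. The GC box was in 12 of these 26, against 35.7% of the 32851 mouse promoters of the same length. The letters TATAAA were in 0 of the 26 (13.6% of all promoters), CCAAT in 4 (37.4%) and ACGTG, the core that hypoxia-inducible factors bind, in 1, that of *Itga9* (19.6%), with both strands searched. These matches describe the letters in the windows, and no factor binding was measured.

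The libraries held 18097718 to 25988746 counted reads, the fewest in si-*Snhg18* 3. Levels are given as RPKM, which are reads scaled with TMM factors to a library of 1000000 reads (CPM) and divided by the transcript length in kb. In si-NC, *Snhg18* stood at 15.8, 15.1 and 14.9 RPKM, and in si-*Snhg18* at 7.16, 7.50 and 6.71 RPKM. The groups did not overlap, with a log2 fold change of -1.10 (SE 0.10, n = 3 per group, adjusted p = 0.00727 by edgeR's quasi-likelihood test), as the labels say. The smooth muscle markers *Acta2*, *Tagln*, *Myh11*, *Cnn1*, *Smtn* and *Des* were all detected, with *Acta2* at 426 ± 32.3 RPKM in si-NC (SD, n = 3), and so were the fibroblast genes *Col1a1* and *Pdgfra*. Of the 6 smooth muscle markers, *Tagln* fell (log2 fold change -0.51, adjusted p = 0.0427 by edgeR's quasi-likelihood test), and a fit that took the replicate number as a block called 4 of them lower. Of all genes tested, 3.71% were called lower without the block and 13.6% with it. The summed level of the 6 was 1725 to 1867 CPM in si-NC and 1189 to 1813 in si-*Snhg18*. The 4 fibroblast markers summed to 2263 to 2957 CPM in si-NC and 1375 to 2215 CPM in si-*Snhg18*, and the 7 epithelial markers, of which *Krt18* and *Krt19* passed the filter, to 79.8 to 88.3 and 46.3 to 55.5 CPM. Neither sum overlapped between the groups, and edgeR's quasi-likelihood test called 0 markers of either list without the block, where 1 of each had an unadjusted p under 0.05. It called 2 of each lower with the block, *Pdgfra* and *Col1a1*, and *Krt18* and *Krt19*. DESeq2 called 0 and 1, beside 2124 genes of the whole table. The part of these shifts in the results on members was not tested. Each library is a mixture of many cells, so fewer cells of a type and less RNA per cell cannot be told apart.

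Of the 29 integrin and laminin genes tested, 1 rose and 5 fell after *Snhg18* knockdown, and 23 were not called. *Lamb1* rose. *Itgb7*, *Itga3*, *Lamb2*, *Itgb1* and *Itgav* fell. A gene was called at an adjusted p under 0.05 in edgeR's quasi-likelihood test, with the adjustment over all 14531 genes tested, of which 7.36% were called, 3.65% higher and 3.71% lower. The median log2 fold change over the 29 members was -0.15, beside 0.01 over all genes tested. When the replicate number was added to the fit as a block, 2 members were called higher and 6 lower, with *Itga5* joining the rises and *Itgb3* the falls, while 27.2% of all genes were called, 13.6% higher and 13.6% lower. The 3 libraries of one group lay wholly above or below those of the other for 2 members that were higher with si-*Snhg18*, *Itga5* and *Lamb1*, and for 7 that were lower, the 5 that fell with *Itga7* and *Itga10*. Among all genes tested the share was 15.4% for higher and 15.5% for lower.

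**Figure D1:**
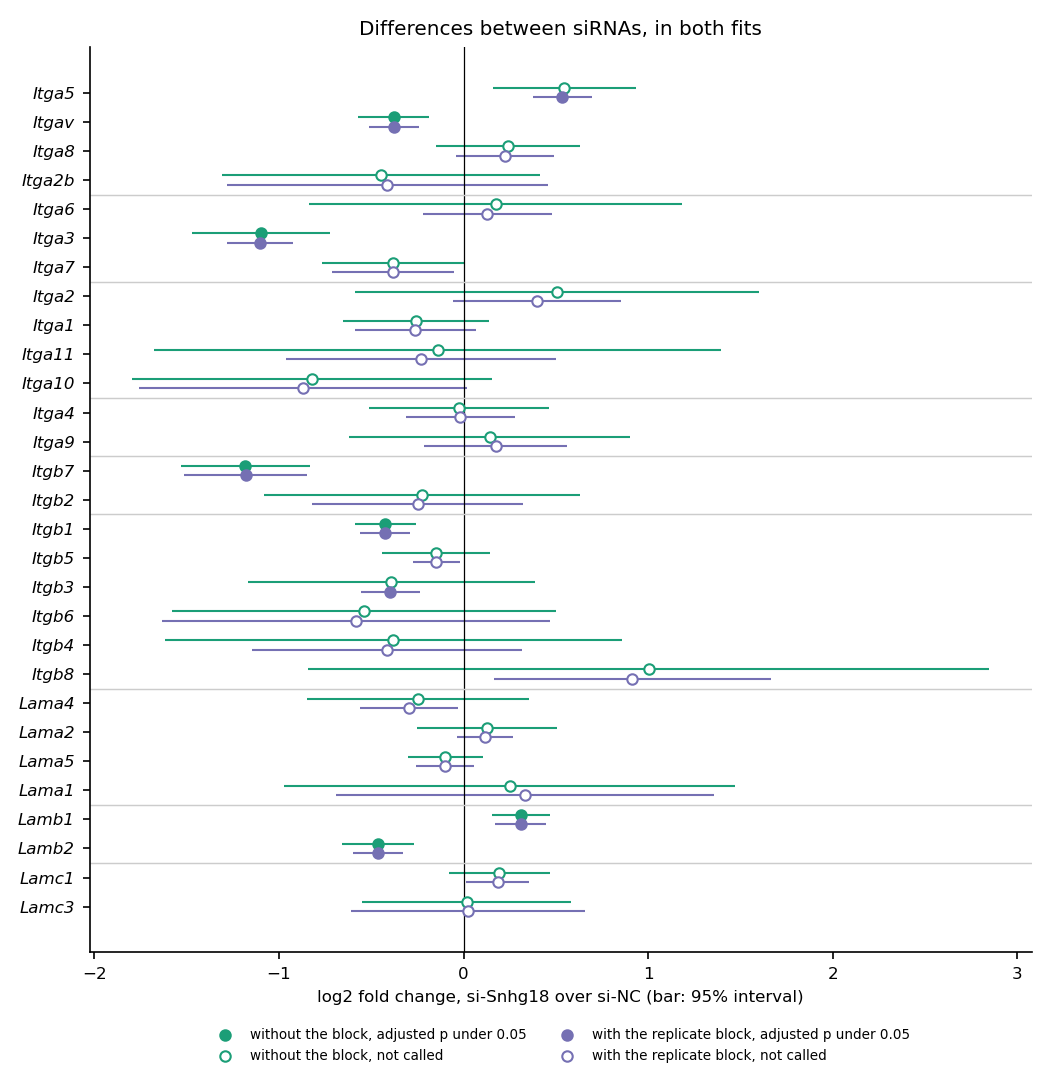
Log2 fold change of si-Snhg18 over si-NC for the 29 tested members (horizontal axis, bars are 95% intervals), with the fit without a block in green and the fit with the replicate block in purple. Filled points have an adjusted p under 0.05, which is the case for 6 members without the block and 8 with it, and the bars of most members are shorter with the block.

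These calls rested on the full set of libraries. With si-NC 1, si-NC 3 or si-*Snhg18* 3 left out, edgeR's quasi-likelihood test called 0 genes of the whole table, the members included. In each of these fits 7 members had an unadjusted p under 0.05. So did 2512, 2731 and 2464 genes of the whole table. Without si-NC 2, *Itga3* was the 1 member among 158 genes called. Without si-*Snhg18* 1 there were 3 members among 319 genes called, *Itga3*, *Itgb1* and *Itgb7*. Leaving out si-*Snhg18* 2 kept all 6 calls and added *Itga5* and *Lama4*, while 3282 genes of the whole table were called. The direction of each of the 6 called members stayed the same in all of these fits.

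**Figure D2:**
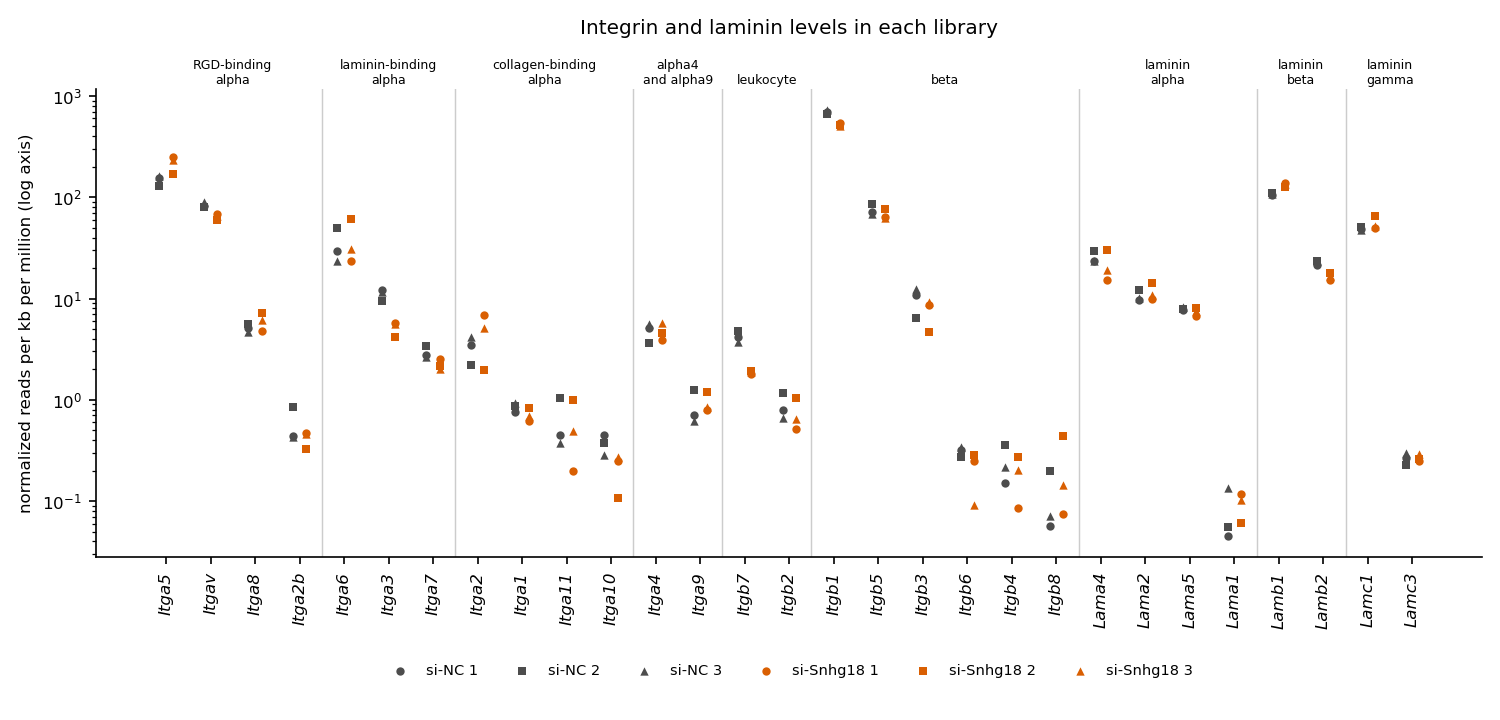
Level of each tested member in each library, in RPKM on a log axis, grouped by role, with si-NC in grey, si-Snhg18 in orange and the replicate number as the point shape. Itgb1 stands highest, at 503 to 727 RPKM in the 6 libraries, and the point of Itga6 is set with a listed transcript of 707 bases.

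Among the RGD-binding alpha subunits, *Itga5* had the highest level and *Itgav* the next, and their values went opposite ways. *Itga5* encodes the alpha subunit of the main fibronectin receptor (ENSMUSG00000000555, chromosome 15 from 103344286 to 103366763, minus strand, GRCm38.p6). Its level was 154, 129 and 164 RPKM in si-NC 1, 2 and 3 and 250, 171 and 231 RPKM in si-*Snhg18* 1, 2 and 3. All 3 knockdown libraries were above all 3 controls, and both libraries numbered 2 were the lowest of their group. The log2 fold change was 0.55 (SE 0.16), and its adjusted p was 0.0973 by edgeR's quasi-likelihood test, or 0.00222 in the blocked fit. It was also called without si-*Snhg18* 2 (log2 fold change 0.69, adjusted p = 0.0114 in the same test) and by DESeq2 (0.55, adjusted p = 0.0255).

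*Itgav* encodes the alphav subunit, which pairs with beta1, beta3, beta5, beta6 or beta8 and binds vitronectin and latent TGF-beta (ENSMUSG00000027087, chromosome 2 from 83724397 to 83806916, plus strand). It was at 82.6, 79.4 and 89.6 RPKM in si-NC and at 67.9, 60.0 and 65.6 RPKM in si-*Snhg18*. All 3 knockdown libraries were below the controls, and the gap between the groups was larger than the spread within either. *Itgav* fell by 0.38 on the log2 scale (SE 0.08, adjusted p = 0.0421, edgeR's quasi-likelihood test), and with single libraries left out the log2 fold change ran from -0.42 to -0.32 with an adjusted p of up to 0.172. *Itga8*, the partner of beta1 in the nephronectin receptor of smooth muscle, stood at 5.09 ± 0.472 RPKM in si-NC and 6.02 ± 1.20 in si-*Snhg18* (SD, n = 3), with overlapping groups and a log2 fold change of 0.24 (95% interval -0.15 to 0.63). *Itga2b*, the platelet fibrinogen receptor subunit, had 29 to 71 reads per library, and its log2 fold change was -0.45 (95% interval -1.31 to 0.41). Of the platelet markers *Pf4*, *Ppbp*, *Gp9* and *Gp1bb*, 3 of 4 had 0 reads in every library and *Ppbp* had at most 6.

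Of the 3 laminin-binding alpha subunits, *Itga3* fell and the other 2 were not called. *Itga3* encodes the partner of beta1 that binds laminins with the alpha5 or alpha3 chain (ENSMUSG00000001507, chromosome 11 from 95044474 to 95076801, minus strand). Its level was 12.0, 9.47 and 11.5 RPKM in si-NC and 5.74, 4.17 and 5.54 RPKM in si-*Snhg18*. The lowest control was well above the highest knockdown library, and both libraries numbered 2 were the lowest of their group. *Itga3* fell by 1.10 on the log2 scale (SE 0.16, 95% interval -1.47 to -0.72, adjusted p = 0.0162, edgeR's quasi-likelihood test), to 0.468 of the si-NC mean. With single libraries left out, the log2 fold change stayed between -1.19 and -0.97 and the adjusted p was at most 0.101.

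*Itga7*, the laminin receptor subunit of differentiated muscle, was at 2.76, 3.41 and 2.62 RPKM in si-NC and 2.55, 2.17 and 2.01 RPKM in si-*Snhg18*. The groups did not overlap, but the highest knockdown library was only just below the lowest control, and the gene was not called (log2 fold change -0.38, 95% interval -0.77 to 0.00, adjusted p = 0.203, or 0.0863 in the blocked fit, edgeR's quasi-likelihood test). *Itga6*, whose product binds most laminins with beta1 or beta4, had 389, 483 and 854 reads in si-NC and 401, 415 and 1120 in si-*Snhg18*. In both groups the library numbered 2 was by far the highest, and the difference between the siRNAs was small beside it (log2 fold change 0.18, 95% interval -0.84 to 1.19). Its level per length was 34.0 ± 13.6 RPKM in si-NC and 38.4 ± 19.9 in si-*Snhg18* with the listed transcript of 707 bases, and 5.58 ± 2.23 and 6.30 ± 3.26 RPKM with its longest annotated transcript of 4310 bases (SD, n = 3). The place of *Itga6* among the subunits thus depends on the length used, and its difference between groups does not.

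Neither the 4 collagen-binding alpha subunits nor *Itga4* and *Itga9* held a gene that was called by edgeR's quasi-likelihood test, with or without the block, or by DESeq2, and 0 of these 6 had an unadjusted p under 0.05. *Itga2*, the alpha subunit of a collagen receptor that pairs with beta1, had the highest level of its role, at 3.44, 2.19 and 4.15 RPKM in si-NC and 6.82, 1.96 and 5.12 RPKM in si-*Snhg18*. Libraries 1 and 3 were higher with si-*Snhg18* than with si-NC, and the pair numbered 2 was lowest and nearly level. The log2 fold change was 0.51 (95% interval -0.59 to 1.60) over all libraries and 0.65 without the pair numbered 2, where *Itga2* was called (adjusted p = 0.0208, edgeR's quasi-likelihood test). *Itga1*, the main collagen IV receptor subunit of smooth muscle, was at 0.853 ± 0.0858 RPKM in si-NC and 0.713 ± 0.110 in si-*Snhg18* (SD, n = 3).

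The fibrillar collagen receptor subunit *Itga11* ran from 0.375 to 1.04 RPKM in si-NC and from 0.199 to 0.998 in si-*Snhg18*, with the libraries numbered 2 highest in both groups. *Itga10*, its relative in cartilage, had 34 to 52 reads in si-NC and 14 to 32 in si-*Snhg18*. The *Itga10* groups did not overlap in RPKM, and the log2 fold change was -0.82 (95% interval -1.79 to 0.16). *Itga4*, a receptor subunit for VCAM1 and fibronectin, was at 5.07, 3.64 and 5.63 RPKM in si-NC and 3.88, 4.53 and 5.71 RPKM in si-*Snhg18*. The *Itga4* groups overlapped almost fully, with a log2 fold change of -0.02 (95% interval -0.51 to 0.47), and those of its relative *Itga9* overlapped too (0.14, 95% interval -0.62 to 0.90).

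Of the 6 beta subunits outside the leukocyte group, *Itgb1* fell and the other 5 were not called. *Itgb1* encodes the beta1 subunit, which pairs with most alpha subunits above (ENSMUSG00000025809, chromosome 8 from 128685654 to 128733200, plus strand), and it had the highest level of the 36 members. It stood at 698, 663 and 727 RPKM in si-NC and 543, 511 and 503 RPKM in si-*Snhg18*. All 3 knockdown libraries were below all 3 controls, and the gap was larger than the spread within either group. *Itgb1* fell by 0.42 on the log2 scale (SE 0.07, adjusted p = 0.0216, edgeR's quasi-likelihood test), to 0.746 of the si-NC mean, and with single libraries left out the log2 fold change ran from -0.46 to -0.39 with an adjusted p of up to 0.128.

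*Itgb5*, an alphav partner in the vitronectin receptor, was next in level among the beta subunits, at 74.8 ± 9.40 RPKM in si-NC and 67.5 ± 7.76 in si-*Snhg18* (SD, n = 3), with overlapping groups and a log2 fold change of -0.15 (95% interval -0.44 to 0.14). Each knockdown library was below the control of its number. The blocked fit gave -0.15 (95% interval -0.27 to -0.02) and did not call *Itgb5* (adjusted p = 0.0821, edgeR's quasi-likelihood test). *Itgb3*, the alphav partner known from growing smooth muscle and osteoclasts, was at 10.8, 6.45 and 12.4 RPKM in si-NC and 8.66, 4.72 and 9.25 RPKM in si-*Snhg18*. The groups overlapped, with the control numbered 2 low, but within each replicate number the knockdown library was the lower one. The log2 fold change of *Itgb3* was -0.39 (SE 0.32, adjusted p = 0.497, edgeR's quasi-likelihood test) without the block, and -0.40 (SE 0.07, adjusted p = 0.00635) with it. *Itgb4*, *Itgb6* and *Itgb8*, subunits better known from epithelia and, for *Itgb8*, from the release of TGF-beta, had 5 to 95 reads per library. *Itgb8* was at 0.0565, 0.199 and 0.0706 RPKM in si-NC and 0.0753, 0.435 and 0.143 RPKM in si-*Snhg18*, so that the 2 highest values came from the libraries numbered 2. Its log2 fold change of 1.00 had a 95% interval from -0.84 to 2.85. Each knockdown library was above the control of its number. The blocked fit gave 0.91 (95% interval 0.16 to 1.66) and did not call *Itgb8* (adjusted p = 0.0733, edgeR's quasi-likelihood test).

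Of the 7 subunits of leukocyte integrins, *Itgb7* and *Itgb2* were tested. *Itgb7* encodes the beta7 subunit, the partner of alpha4 and alphaE in lymphocyte homing (ENSMUSG00000001281, chromosome 15 from 102215995 to 102231944, minus strand). It was at 4.17, 4.81 and 3.74 RPKM in si-NC, from 237 to 316 reads, and at 1.80, 1.91 and 1.90 RPKM in si-*Snhg18*, from 93 to 133 reads. The 3 knockdown libraries lay close together and far below every control. *Itgb7* fell by 1.18 on the log2 scale (SE 0.15, 95% interval -1.53 to -0.83, adjusted p = 0.0115, edgeR's quasi-likelihood test), to 0.441 of the si-NC mean, and with single libraries left out the log2 fold change stayed between -1.26 and -1.08 with an adjusted p of at most 0.0833. Of its partners, *Itga4* is described above and *Itgae* had at most 4 reads in any library.

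*Itgb2*, the common beta chain of the phagocyte and lymphocyte integrins, had 35 to 84 reads per library, with overlapping groups (log2 fold change -0.23, 95% interval -1.08 to 0.63). Its alpha partners were at or near the floor, with at most 3 reads for *Itgam* and for *Itgax* and 0 reads in every library for *Itgal* and *Itgad*. A count of 0 allows a level of up to 0.115 to 0.164 CPM in these libraries, where the floor of 3 reads covers counting error only. Of 9 leukocyte markers, *Adgre1* had 0 reads, *Ptprc*, *Laptm5* and *Coro1a* had at most 12, and *Cd14*, *Csf1r*, *Cd68*, *Lyz2* and *Cd53* passed the filter. *Cd53* fell, as *Itgb7* did, from 62.5 ± 7.02 to 29.1 ± 0.206 RPKM (SD, n = 3, log2 fold change -1.10, adjusted p = 0.00727, edgeR's quasi-likelihood test), and the other 4 were not called. Their log2 fold changes were 0.59 for *Cd14*, 0.49 for *Lyz2*, 0.35 for *Cd68* and -0.14 for *Csf1r*, and the median over the 5 tested markers was 0.35. The fit with the block called *Cd14* higher (0.57, adjusted p = 0.00369) and *Cd53* lower (-1.09, adjusted p = 5.0e-04). The summed level of the 9 markers was 115.4 to 159 CPM in si-NC and 75.1 to 115.2 CPM in si-*Snhg18*. This sum just did not overlap between the groups, though *Cd14*, *Lyz2* and *Cd68* had positive log2 fold changes. The part of such cells in the *Itgb7* difference was not tested.

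None of the 4 laminin alpha chains tested was called by edgeR's quasi-likelihood test, with or without the block, or by DESeq2. In the fit without the block 0 of the 4 had an unadjusted p under 0.05, and with the block *Lama4* did (0.0342, adjusted p = 0.0955 by edgeR's quasi-likelihood test). *Lama4*, the alpha chain of vascular basement membranes, had the highest level of these chains, at 23.7, 29.7 and 23.3 RPKM in si-NC and 15.4, 30.2 and 19.1 RPKM in si-*Snhg18*. Knockdown libraries 1 and 3 were below every control, while the library numbered 2 was just above them all. The log2 fold change of *Lama4* was -0.25 (95% interval -0.85 to 0.36) over all libraries, -0.57 without si-*Snhg18* 2 (adjusted p = 0.0369) and -0.45 without both libraries numbered 2 (adjusted p = 0.0177, edgeR's quasi-likelihood test). *Lama2*, the alpha chain of muscle laminin, was at 10.6 ± 1.24 RPKM in si-NC and 11.6 ± 2.34 in si-*Snhg18*, and *Lama5*, the chain of mature vessel laminin, at 7.96 ± 0.295 and 7.43 ± 0.667 RPKM (SD, n = 3). *Lama1*, the chain of the early embryo, had 10 to 30 reads per library, and *Lama3*, the epithelial chain, was not tested, with at most 13 reads.

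Of the 3 laminin beta chains 2 were tested, and these 2 went in opposite directions. *Lamb1* encodes the beta1 chain found in most tissues (ENSMUSG00000002900, chromosome 12 from 31265234 to 31329644, plus strand). It stood at 106, 110 and 107 RPKM in si-NC and 139, 126 and 136 RPKM in si-*Snhg18*. The controls were nearly level, and every knockdown library was above them. *Lamb1* rose by 0.31 on the log2 scale (SE 0.07, adjusted p = 0.0416, edgeR's quasi-likelihood test), to 1.24 times the si-NC mean, but was not called without a filter on low counts (0.30, adjusted p = 0.0758 in the same test), and with single libraries left out the log2 fold change ran from 0.28 to 0.35 with an adjusted p of up to 0.204.

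*Lamb2* encodes the beta2 chain of the neuromuscular junction, the kidney filter and the arterial wall (ENSMUSG00000052911, chromosome 9 from 108479736 to 108490530, plus strand). Its level was 21.6, 23.6 and 23.3 RPKM in si-NC and 15.3, 17.9 and 16.5 RPKM in si-*Snhg18*. Every knockdown library was below every control by more than the spread within a group. *Lamb2* fell by 0.46 on the log2 scale (SE 0.08, adjusted p = 0.0263, edgeR's quasi-likelihood test), to 0.725 of the si-NC mean, with log2 fold changes from -0.53 to -0.41 and an adjusted p of up to 0.138 when single libraries were left out. *Lamb3*, the beta chain of epithelial laminin, had at most 14 reads and was not tested.

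The gamma chain *Lamc1*, a part of nearly all laminins, was at 48.3, 50.7 and 47.6 RPKM in si-NC and 49.9, 65.7 and 52.2 RPKM in si-*Snhg18*. The knockdown library numbered 2 was far above the other 5, and the log2 fold change was 0.19 (95% interval -0.08 to 0.47). It was not called (adjusted p = 0.341 without the block, edgeR's quasi-likelihood test, and 0.105 in the blocked fit). *Lamc3* had 31 to 41 reads per library and a log2 fold change of 0.02 (95% interval -0.55 to 0.58).

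Expressed as shares of the summed level per length, the make-up of the subunits shifted most among the alpha subunits and the laminin beta chains. *Itga5* made up 57.5%, 54.4% and 57.6% of the alpha subunits, *Itga6* left out, in si-NC and 72.6%, 67.2% and 71.3% in si-*Snhg18*. *Itgav* went the other way, from 32.0% ± 1.36 to 21.2% ± 2.08, and *Itga3* from 4.18% ± 0.271 to 1.67% ± 0.0368 (SD, n = 3). The groups did not overlap in any of these shares.

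The summed alpha subunits, with *Itga6* at its listed length, were 297, 286 and 308 RPKM in si-NC and 367, 316 and 355 RPKM in si-*Snhg18*, without overlap. With *Itga6* left out the groups overlapped, at 263 ± 24.1 and 307 ± 46.8 RPKM (SD, n = 3). The summed beta subunits were 785, 761 and 813 RPKM in si-NC and 618, 596 and 577 RPKM in si-*Snhg18*, lower in each knockdown library than in any control. *Itgb1* made up most of that sum in both groups, 88.5% ± 1.29 and 86.9% ± 1.08 (SD, n = 3). Among the laminin beta chains *Lamb1* went from 82.5% ± 0.499 to 88.9% ± 1.28 and *Lamb2* from 17.5% ± 0.485 to 11.1% ± 1.29. Among the laminin alpha chains the share of *Lama2* was 23.5%, 24.2% and 24.1% in si-NC and 30.6%, 27.1% and 28.5% in si-*Snhg18*, without overlap. The share of *Lama4*, the most abundant of them, overlapped between the groups, at 57.7% ± 2.09 in si-NC and 52.1% ± 4.87 in si-*Snhg18* (SD, n = 3). Shares of one sum depend on each other, so they describe the make-up and were not tested.

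**Figure D3:**
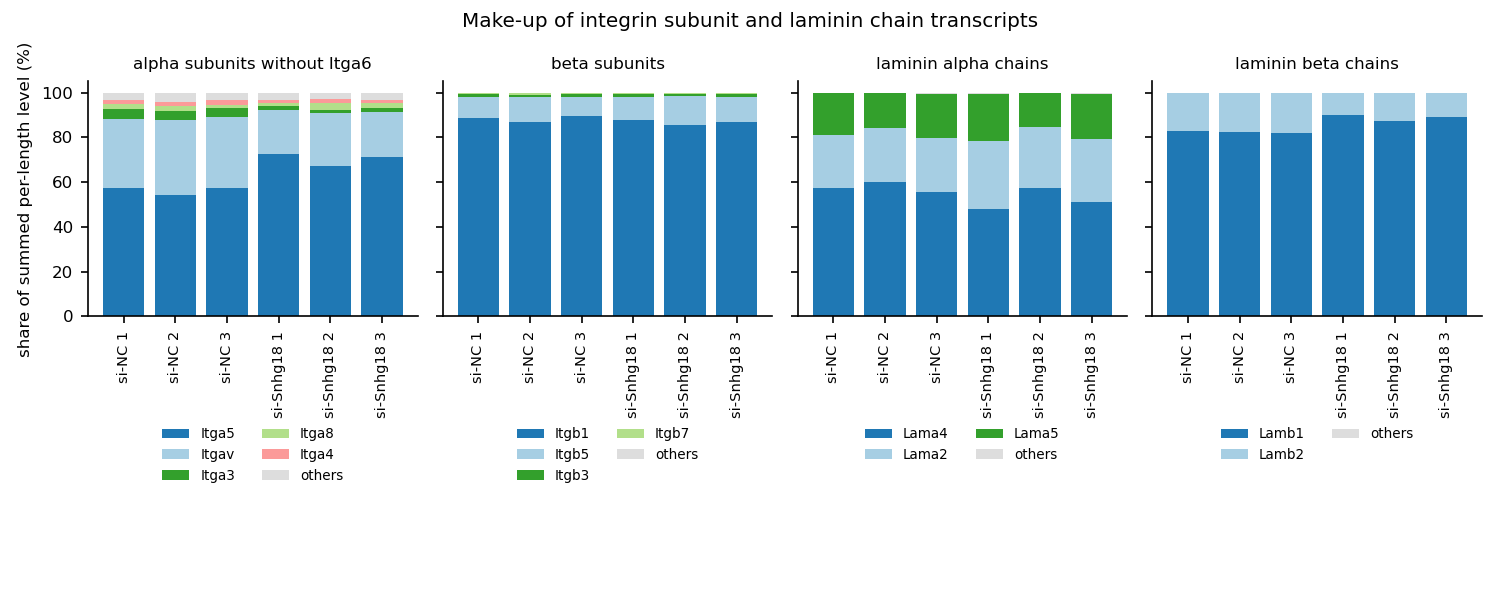
Share of each subunit or chain in the summed level per length of its class (vertical axis, percent) in each of the 6 libraries, with Itga6 left out of the alpha subunits. The Itga5 share is at 54.4% to 57.6% in si-NC and 67.2% to 72.6% in si-Snhg18, and the Lamb1 share of the laminin beta chains is higher in each si-Snhg18 library than in any si-NC library.

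In many members the replicate number took a larger share of the variance than the siRNA. There are 3 replicate numbers and 2 siRNAs, so the number tends to take the larger share even where neither has an effect. The shares were not tested against each other. Splitting the variance of each gene's log2 CPM, the replicate number took a median of 47.4% over the 29 members and the siRNA 22.5%, beside 43.2% and 31.6% over all genes tested. The number took 88.4% for *Itga6*, 85.8% for *Itga9*, 85.3% for *Lama2*, 84.6% for *Itgb4* and 81.4% for both *Itga11* and *Itgb3*. The siRNA in turn took 96.7% for *Itgb7*, 94.4% for *Itgb1*, 92.2% for *Lamb1* and 90.3% for *Itga3*. On the log2 scale the libraries numbered 2 were above the others by 1.73 for *Itgb8*, 1.46 for *Itga11*, 1.04 for *Itga6* and 0.96 for *Itgb4*, and below them by more than 0.8 for *Itga2* (-1.18) and *Itgb3* (-0.88). Without these 2 libraries, 3 members were called higher, *Itga2*, *Itga5* and *Lamb1*, and 7 lower, the 5 that fell above with *Itgb3* and *Lama4*. In that fit 4020 genes of the whole table were called. What the shared number stands for is not given in the sources used here.

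**Figure D4:**
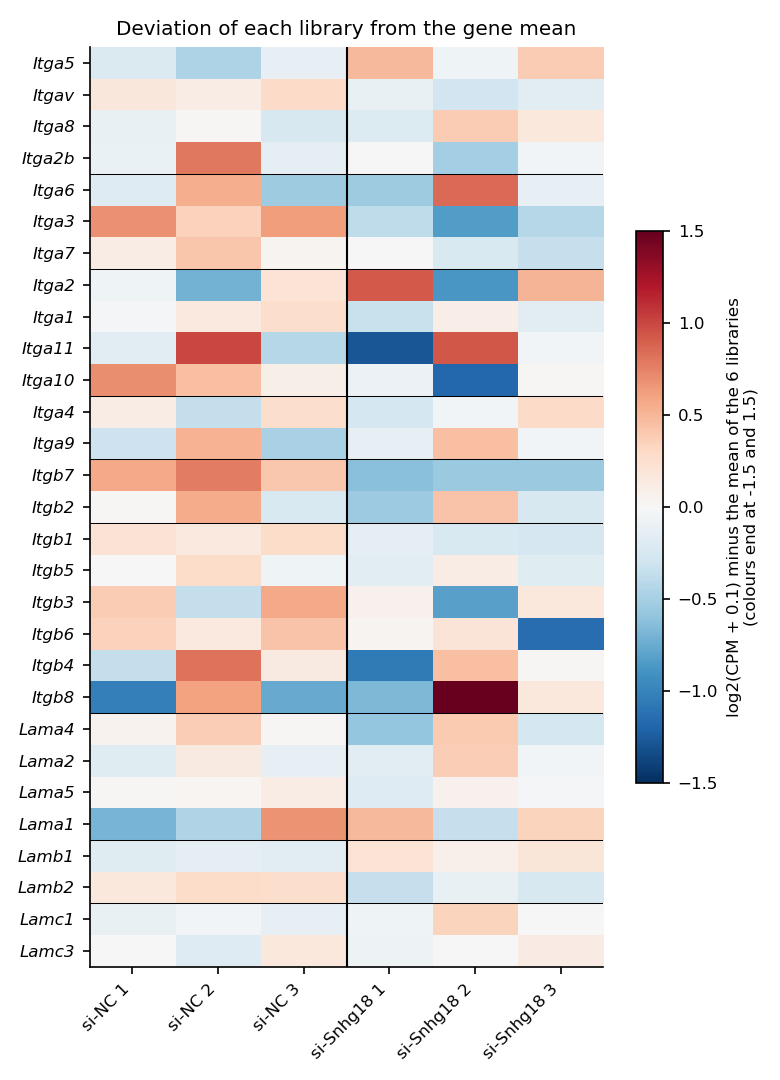
Deviation of each library (columns) from the mean of the 6 libraries for each tested member (rows), in log2(CPM + 0.1), red above and blue below the mean, with colours ending at -1.5 and 1.5. Itgb7, Itga3, Itgb1 and Lamb2 change colour between the si-NC columns on the left and the si-Snhg18 columns on the right, whereas Itga6, Itga11 and Itgb8 are reddest in the columns numbered 2.

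Genes that work with integrins and laminins were followed in 4 lists compiled from textbook knowledge. Beside the counts of these lists, 3.65% of all genes tested were called higher and 3.71% lower. With the block these shares were 13.6% and 13.6%. Of 35 tested adhesion adaptors and kinases, 2 rose and 1 fell, with a median log2 fold change of 0.02. *Parvb*, the beta-parvin that links integrin-linked kinase to actin, was at 23.1, 24.0 and 24.0 RPKM in si-NC and 49.6, 40.7 and 46.0 RPKM in si-*Snhg18*. Every knockdown library was well above the controls, and *Parvb* rose by 0.94 on the log2 scale (SE 0.09, adjusted p = 0.00733, edgeR's quasi-likelihood test). *Git1*, a scaffold that binds paxillin, rose from 40.0 ± 1.20 to 50.5 ± 3.65 RPKM (log2 fold change 0.33, adjusted p = 0.0483), and *Kank1*, a talin-binding adaptor, fell from 11.9 ± 0.258 to 8.67 ± 0.831 RPKM (log2 fold change -0.46, adjusted p = 0.0328, edgeR's quasi-likelihood test, SD, n = 3). *Git1* was not called with RLE factors, with limma-voom or without a filter on low counts. With the block 7 of the 35 were called higher and 6 lower.

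Of 34 tested integrin ligands and basement membrane partners, 1 rose and 3 fell, with a median log2 fold change of -0.10. *Npnt*, nephronectin, the ligand of alpha8 beta1, was at 36.7, 33.4 and 37.1 RPKM in si-NC and 19.6, 18.2 and 20.1 RPKM in si-*Snhg18*, and fell by 0.89 on the log2 scale (SE 0.07, adjusted p = 0.00727, edgeR's quasi-likelihood test). The groups were far apart, and the receptor subunit gene *Itga8* was not called. *Ccn1*, a matricellular ligand of alphav and alpha6 integrins, fell from 278 ± 7.35 to 165 ± 32.5 RPKM (log2 fold change -0.75, adjusted p = 0.0304), and *Icam1*, a ligand of the beta2 integrins, from 15.6 ± 1.03 to 10.3 ± 0.780 RPKM (log2 fold change -0.60, adjusted p = 0.0208, edgeR's quasi-likelihood test, SD, n = 3). *Adam15*, a metalloprotease with a disintegrin domain, rose from 41.6 ± 1.32 to 50.5 ± 0.610 RPKM (log2 fold change 0.28, adjusted p = 0.0410, edgeR's quasi-likelihood test), and was not called without a filter on low counts. With the block 9 of the 34 were called higher and 12 lower, beside 13.6% and 13.6% of all genes tested.

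The list of laminin receptors other than integrins also held the linker *Utrn*. Of its 15 tested genes, 1 rose and 1 fell, with a median log2 fold change of -0.21. *Sdc4*, the heparan sulfate proteoglycan syndecan-4 of focal adhesions, was at 104, 92.5 and 108 RPKM in si-NC and 67.3, 57.6 and 59.9 RPKM in si-*Snhg18*, with no overlap, and fell by 0.72 on the log2 scale (SE 0.09, adjusted p = 0.0126, edgeR's quasi-likelihood test). *Utrn*, utrophin, which anchors dystroglycan to actin, rose from 13.6 ± 0.821 to 17.3 ± 0.898 RPKM (log2 fold change 0.35, adjusted p = 0.0443, edgeR's quasi-likelihood test, SD, n = 3). *Utrn* was not called with library totals in place of TMM factors or without a filter on low counts. With the block 2 of the 15 were called higher and 5 lower, beside 13.6% and 13.6% of all genes tested.

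Of 4 tested netrins, which share domains with laminin, edgeR's quasi-likelihood test called 0, DESeq2 0 and the fit with the block 1, and 1 had an unadjusted p under 0.05. The same test called 0 of 5 tested integrin-named genes outside the rule, which encode binding proteins and relatives rather than subunits. DESeq2 called 1 of these 5 and the fit with the block 3, and 2 had an unadjusted p under 0.05. Of all 14531 genes tested, 3613 had an unadjusted p under 0.05, and 7.36% were called, or 27.2% with the block. DESeq2 called 2124 genes of the whole table. The 9 calls of the 4 lists were lost without si-NC 1, si-NC 3 or si-*Snhg18* 3, where 0 genes of the table were called. From these lists 3 genes were called without si-NC 2, 4 without si-*Snhg18* 1 and 33 without si-*Snhg18* 2. The whole table had 158, 319 and 3282 calls in the same order.

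**Figure D5:**
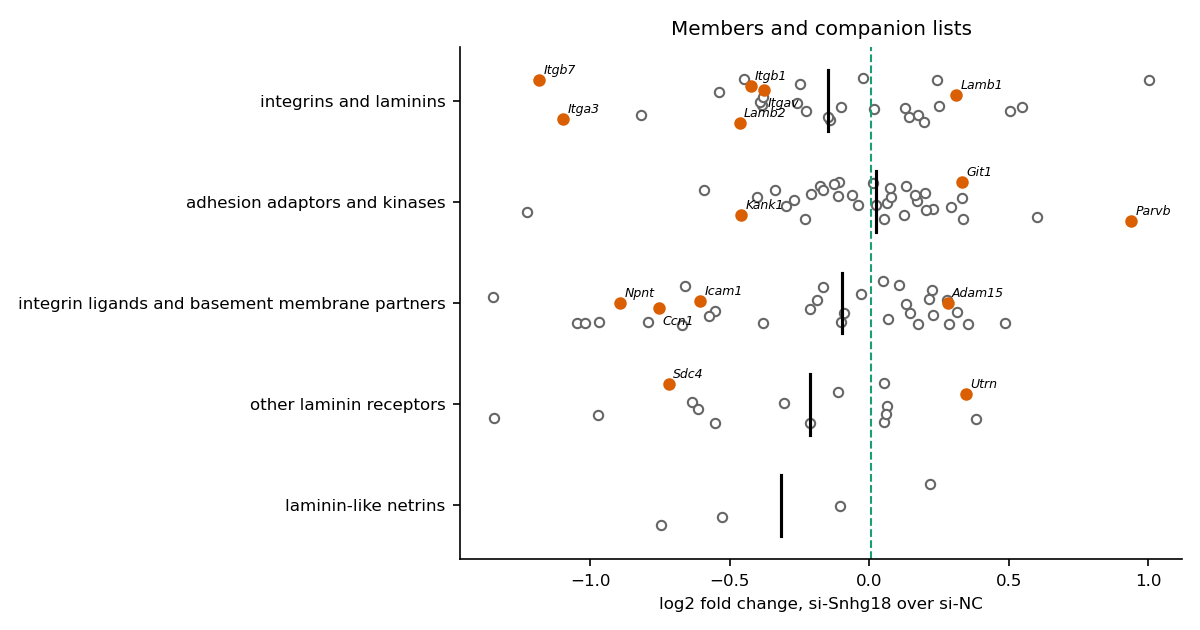
Log2 fold change of si-Snhg18 over si-NC (horizontal axis) of each tested gene in the integrin and laminin family and the 4 companion lists, with called genes filled and named, a black bar at each list's median and a dashed line at the median of all genes tested. The family's median is at -0.15 and that of the adaptors at 0.02.

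Reads of some members could be shared with overlapping gene models, since the counting program and its use of strand are not given in the sources used here. *Itga10*, *Itga1*, *Itgam* and *Itgad* overlap a predicted gene on the same strand, and *Itgav*, *Itga4*, *Itga7*, *Itga8*, *Itgb4*, *Itgad*, *Lama2*, *Lama3* and *Lamc3* overlap a gene on the other strand, which is *Cerkl* for *Itga4* and *Mettl7b* for *Itga7*. The overlapping genes that the table lists had at most 17 reads in any library. *Itgav* shared 5.90% of its exon bases with such a gene, which had at most 4 reads. The shares were larger for *Itgam*, at 68.7% (other gene 0 reads), and *Itga10*, at 33.5% (other gene at most 1 read), both on the same strand. Whether reads in shared bases were counted for either gene is not known, which limits the low counts of *Itgam* and *Itga10*.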

How the data were processed

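RNA sequencing of 6 mPASMC libraries, 3 with si-NC and 3 with si-*Snhg18*, was analysed. Library preparation by the authors used the TruSeq Stranded mRNA kit. They deposited raw whole-number read counts per gene, with 1 transcript length per gene and positions on GRCm38.p6. The submitters' processing notes name HISAT2 and mm10, and the counting program is not given in the sources used here. Groups and replicate numbers came from the sample labels.

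The analysis ran in edgeR 4.0.16 under R 4.3.3. The function filterByExpr (minimum count 10) left 14531 genes, which were scaled by TMM factors and tested by edgeR's quasi-likelihood method, glmQLFit followed by glmQLFTest. P-values were adjusted by Benjamini-Hochberg over these genes. The biological coefficient of variation, in common over genes, was 0.218, or 0.101 when blocked. RPKM is TMM-scaled CPM divided by the listed length, which suits comparison between genes only as far as that length holds. The reads carry no molecular identifiers, so floors and intervals on counts cover counting error only.

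The members, the gene lists and the tests were chosen with earlier results of these data known. Named genes were set by a rule: *Snhg18*, every member that passed the filter, the other members by their largest count, and the called genes of each companion list, up to 5 by p. A member and 2 listed genes are not reported here. *Tagln*, *Cd53* and the other marker genes came from marker lists and were singled out after their values were seen.

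The pairing of libraries comes from the replicate numbers of the labels. Deviations of same-numbered libraries from their group means correlated at 0.410, 0.742 and 0.359, each over the minimum of 0.1. Values with the replicate block therefore stand beside those of members whose call they change, and of some other genes.

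Alternatives were DESeq2 1.42.0, limma-voom (limma 3.58.1), RLE factors, library totals, no filter, a minimum count of 50, the replicate block with edgeR and DESeq2, and leaving out each library. Leaving out both libraries numbered 2 was chosen after seeing the data. The edgeR quasi-likelihood test, with and without the block, was first run on simulated counts. The other alternatives were not.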

Additional observations from a re-analysis of the deposited data

How the results depend on the processing

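Too few reads to test were counted for 7 members, and the 3 libraries per group limited calls of differences smaller than their spread. The fits that left out 1 library called 0 to 3282 genes of the whole table, 0 to 2 members higher, 0 to 6 members lower, and 0 to 33 companion genes. The log2 fold change of *Snhg18* ran from -1.14 to -1.06 in them, with an adjusted p over 0.05 (edgeR's quasi-likelihood test) without si-NC 1 (-1.07, 0.0659), si-NC 3 (-1.11, 0.0700) or si-*Snhg18* 3 (-1.06, 0.0703). Beside the 1069 genes, 1 member higher, 5 members lower and 9 companion genes called over all libraries, the replicate block called 3954, 2, 6 and 42, DESeq2 called 2124 genes, 2 members higher and 21 companion genes, and DESeq2 with the replicate block called 3166, 2 and 38 of these. Leaving out both libraries numbered 2, a choice made after seeing the data, gave 4020 genes, 3 members higher, 7 lower and 42 companion genes. Without a filter on low counts 0 members were called higher. The cause of these shifts was not tested. The log2 fold change changed sign for uncalled members only. With 1 library left out it ran from -0.19 to 0.12 for *Itga4* (0.018, 0.12 and 0.098 where the sign changed), from -0.069 to 0.52 for *Itga9* (-0.045 and -0.069), from -0.80 to 0.014 for *Itgb4*, from -0.027 to 1.77 for *Itgb8*, from -0.88 to 0.45 for *Itga11* (0.45 and 0.27), from -0.051 to 0.24 for *Lama2*, from -0.023 to 0.88 for *Lama1*, from -0.075 to 0.11 for *Lamc3* (-0.075 and -0.042), from -0.33 to 0.54 for *Itga6* (-0.034 and -0.33) and from -0.58 to 0.036 for *Itgb2*. Leaving out both libraries numbered 2 gave 0.098 for *Itga2b* and -0.068 for *Lamc3*. With RLE factors, library totals, limma-voom or a minimum count of 50, the counts of members called stayed at 1 higher and 5 lower.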
